A study of Mus musculus with 23 samples.

Results

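The integrated stress response genes are 10 of the 53607 gene rows in the count table: Ddit3, Atf3, Atf4, Atf5, Trib3, Asns, Chac1, Ddit4, Slc7a11 and Nupr1. They were taken by name as a family chosen by 1 measured value, the fall of Ddit3 after RAS deletion in 2iL, the largest among genes called lower there with groups apart and a mean of at least 5 CPM (counts-per-million). All 10 passed the filter on low counts. RNA was measured by sequencing in 23 libraries from mouse embryonic stem cells.

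All cells came from the Raslox/lox line, which carries H-Ras-/- and N-Ras-/- alleles, a remaining RAS gene flanked by lox sites, and Ubiq-CreERT2, a Cre recombinase that acts once 4-hydroxytamoxifen (OHT) is given. RAS proteins carry growth factor signals down to ERK, a kinase that in turn switches off the transcriptional repressor ERF. Cells were held in 2iL (LIF with inhibitors of MEK and GSK3) or were moved for 48 hours to FA (FGF2 and Activin A), in which they turn into epiblast-like cells. The 8 groups combine ERF WT or ERF KO, OHT or none, and the medium. The ERF WT group without OHT is called the reference here. The reference in FA held 2 libraries and each other group held 3. OHT was given for 6 days to every RAS-deleted library and to no other, so effects of the drug and of the deletion cannot be told apart. Loss of the floxed gene itself was not checked here, and RAS-deleted stands for the label. The labels do not say whether the libraries of a group were separate cultures or clones, so p-values measure the spread between these libraries only.

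In the integrated stress response, kinases that sense missing amino acids, misfolded proteins in the endoplasmic reticulum (ER), heme shortage or viral RNA phosphorylate the translation factor eIF2 alpha. Most translation then slows, while ATF4, a transcription factor made largely by control of translation, accumulates and turns on genes for amino acid supply, redox balance and, when stress lasts, cell death. ATF4 pairs with C/EBP proteins at composite DNA elements, and its targets include further transcription factors (ATF3, ATF5, CHOP) and brakes on the response (TRIB3).

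Promoter stretches are shown because Atf3, Chac1 and Slc7a11, called below both for RAS deletion in FA and for the interaction with the ERF label, hold the letters of the composite element named above. The search read 250 bases before the RefSeq start site for TGATGNAA on either strand, which on the other strand reads TTNCATCA. It was found in 5 of the 10 genes (Atf3, Asns, Chac1, Slc7a11 and Nupr1), in 3.91% of 27025 genes and in 3.45% of the 32851 promoters of the same length. The stretches of Asns and Nupr1 overlap annotated exons and are not printed. Sequences are from RefSeq on build GRCm38.p6, 5′ to 3′ on the gene's strand, with the match in capitals: Atf3 at chr1:191183410-191183469 (minus strand), Chac1 at chr2:119351023-119351082 (plus strand) and Slc7a11 at chr3:50443627-50443705 (minus strand).
Atf3: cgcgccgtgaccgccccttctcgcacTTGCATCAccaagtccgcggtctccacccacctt
Chac1: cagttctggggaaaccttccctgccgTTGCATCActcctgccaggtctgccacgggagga
Slc7a11: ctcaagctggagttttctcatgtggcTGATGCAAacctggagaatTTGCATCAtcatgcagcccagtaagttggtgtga
Slc7a11 had 2 matches in opposite orientation, with first bases 66 and 47 bases before the start. The first base of the match lay 110 bases before the start in Atf3 and 193 in Chac1. For Ddit3, Trib3, Atf4, Atf5 and Ddit4 these letters were not in the window. A match is a description of the letters only.

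Total counts ran from 16221640 to 29874207 per library. Erf RNA was counted in every library, and with the ERF knockout label it was higher in 2iL and overlapped in FA. Without OHT in 2iL it was 116 ± 17.5 CPM (SD, n = 3), against 77.6 ± 7.66 CPM (SD, n = 3) in the reference. In FA it was 57.5 ± 7.06 CPM (SD, n = 3) against 63.1 ± 9.41 CPM (SD, n = 2) without OHT, and 60.6 ± 9.91 CPM against 69.7 ± 4.12 CPM (SD, n = 3 each) with it, differences of -0.14 and -0.20 on the log2 scale (edgeR adjusted p = 0.614 and 0.230). Hras and Nras RNA were still counted in every library although both genes are labelled -/-. The markers of naive ES cells (7 of 7 at 1 CPM or more) summed to 3021 to 3793 CPM in 2iL, and the 4 markers of epiblast-like cells to 43.1 to 72.5 CPM. In FA the naive sum was 572 to 683 CPM in every group except the RAS-deleted ERF WT libraries, where it was 1633 to 2327 CPM. The 5 fibroblast feeder markers summed to 2.23 to 7.43 CPM over the libraries, with 1 or 2 of them at 0 in each group. The 4 ERF WT libraries numbered replicate 1 had raised expression across chromosome 8, and none of the 10 genes lies there. For the list genes used below, neither the chromosome nor the values without these 4 libraries are given here. The 2 reference libraries in FA differed: replicate 2 was higher than replicate 1 for 10 of the 10 genes, against 53.9% of all genes tested, so results of the 10 genes and of the lists that use this group are also given without one or the other. Such a fit has 1 reference library in FA, which is assumed to vary like the other groups, so its calls rest on their spread. Leaving out the 4 ERF WT replicate 1 libraries also keeps 1 reference library in FA, replicate 2, the higher one.

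Per unit of transcript length, the most abundant member was Asns, which makes asparagine, with a median of 255 TPM (transcripts-per-million) over the 23 libraries. Atf4 followed at 87.6 TPM. Ddit4, an inhibitor of mTORC1, Nupr1, a small stress-induced chromatin protein, and Ddit3, which encodes CHOP, had medians of 44.0, 25.3 and 21.5 TPM. Trib3, a pseudokinase that restrains ATF4 and CHOP, stood at 14.5 TPM and Atf5 at 12.1 TPM. Chac1, an enzyme that degrades glutathione, was at 9.73 TPM, Atf3 at 3.59 TPM and Slc7a11, the cystine importer, at 0.468 TPM. Between groups the highest mean CPM was 15.98 times the lowest for Chac1, 13.7 times for Nupr1, 9.99 times for Trib3 and 9.91 times for Ddit3. For Atf4 that ratio was 1.52.

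**Figure D1:**
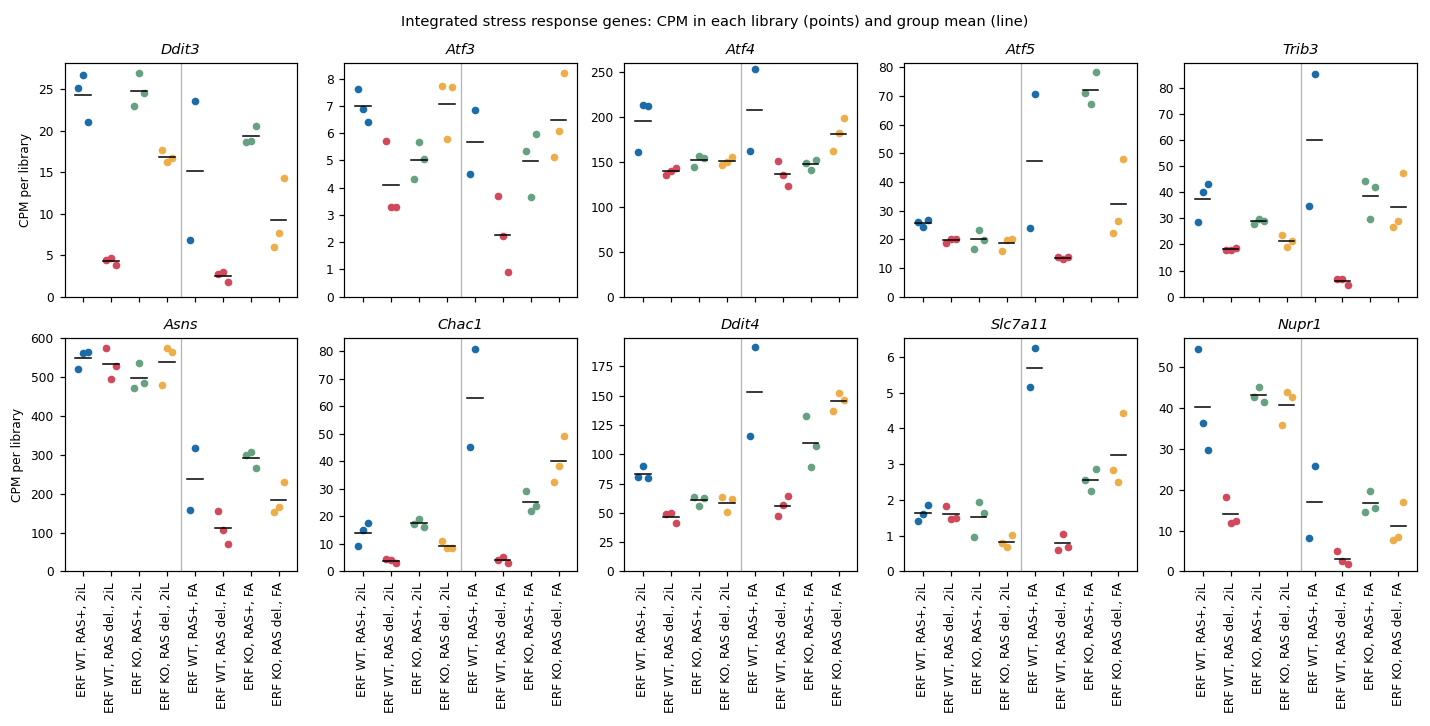
CPM of the 10 genes on linear axes, 1 point per library and a line at each group mean, for the 8 groups along the x axis (RAS del. means OHT given, ERF KO as labelled). Ddit3 is at 3.78 to 4.67 CPM in the RAS-deleted ERF WT libraries in 2iL, below the 16.3 to 26.9 CPM of the other 2iL libraries, and the 2 reference points in FA lie far apart for most genes.

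Ddit3 fell after RAS deletion in 2iL with ERF WT, the comparison that chose it, so the values are a description with no test. Its level was 25.1, 26.8 and 21.04 CPM in the 3 reference libraries and 4.41, 4.67 and 3.78 CPM in the 3 RAS-deleted libraries. The groups did not overlap, and the fitted log2 fold change was -2.50 (SE 0.37). Among the 24 genes ranked in this way, the next largest fall was that of B4galnt2 (-1.82), followed by Chac1 (-1.81). Nupr1 was the 7th (-1.52) and Trib3 the 23rd (-1.04).

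The other members in this same comparison are also given as a description. A gene was called where the adjusted p of edgeR was under 0.05 and the change at least 2-fold; 0.506% of all genes tested were called lower and 4 of the 10 members were (Ddit3, Chac1, Nupr1 and Trib3). Trib3 went from 28.7, 40.1 and 43.2 CPM to 17.7, 18.01 and 18.6 CPM. Nupr1 went from 54.6, 36.5 and 29.9 CPM to 18.2, 11.8 and 12.3 CPM. In both genes the 2 groups were apart. Ddit4 (-0.84), Atf3 (-0.78), Atf4 (-0.49) and Atf5 (-0.39) also lay lower without overlap, which made 8 of 10 against 13.5% of all genes, while Asns (-0.04) and Slc7a11 (-0.02) overlapped. The calls of Trib3 and Nupr1 were lost when single libraries were left out (6 and 4 of the 6 libraries), at -0.92 to -1.20 and -1.24 to -1.59. Nothing is read from these counts, since the rule used the comparison.

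In FA, in libraries that the choice of Ddit3 did not use, 9 of the 10 genes were called lower after RAS deletion with ERF WT, against 8.33% of all genes tested. The largest fall was that of Chac1, which was 45.2 and 80.9 CPM in the reference and 4.21, 5.31 and 2.98 CPM after deletion. Trib3 was 34.8 and 85.4 CPM in the reference and 6.62, 6.97 and 4.46 CPM after deletion. For both genes each reference library lay above each RAS-deleted one. The log2 fold change by edgeR was -3.92 (SE 0.30, adjusted p = 7.44e-09) for Chac1 and -3.32 (SE 0.33, adjusted p = 5.31e-07) for Trib3.

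Slc7a11, which brings in the cystine needed for glutathione, was 5.14 and 6.25 CPM in the reference and 0.613, 1.05 and 0.683 CPM after deletion. Its change was -2.85 (SE 0.29, edgeR adjusted p = 3.34e-08), with counts as low as 12 in a library over the series. With an effective length offset, which adjusts each count for the transcript length estimated in that library, the change was -1.97. The mean level per length was 0.928 TPM in the reference and 0.263 TPM after deletion. Ddit4 was 115 and 192 CPM in the reference and 47.1, 56.8 and 64.4 CPM after deletion, a change of -1.45 (SE 0.18, edgeR adjusted p = 2.23e-06). The 2 groups were apart for both genes.

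Among the transcription factors and regulators, Ddit3 was 6.80 and 23.5 CPM in the FA reference and 2.76, 2.96 and 1.797 CPM after deletion. Its ranges did not overlap, though the reference libraries themselves differed 3.46-fold. The change was -2.59 (SE 0.41, edgeR adjusted p = 7.20e-05). Nupr1 (8.20 and 25.95 CPM against 4.91, 2.59 and 1.94 CPM) changed by -2.44 (SE 0.48, edgeR adjusted p = 0.000635). Atf5, a relative of ATF4 linked to mitochondrial stress, was 23.9 and 70.6 CPM against 13.7, 13.3 and 13.9 CPM, a change of -1.78 (SE 0.34, edgeR adjusted p = 0.000421). Atf3 changed by -1.34 (SE 0.37) and Asns by -1.09 (SE 0.27), with edgeR adjusted p of 0.00594 and 0.00377. Atf4 itself was 162 and 253 CPM against 151, 135 and 123 CPM, and fell by 0.60 on the log2 scale (edgeR adjusted p = 0.00113), short of 2-fold. Ranges lay lower without overlap for 10 of the 10 genes, against 27.3% of all genes tested.

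Without reference replicate 2, the calls of Atf3 (-0.99), Atf5 (-0.80) and Asns (-0.49) were lost and 6 of 10 genes were called, with Ddit3 at -1.43, Nupr1 at -1.39, Trib3 at -2.52 and Chac1 at -3.43. Without reference replicate 1, 9 were called. Without replicate 3 of the RAS-deleted libraries, Atf3 (-0.94) and Asns (-0.85) were lost. On only the groups compared 7 were called, and 5 when the replicate number was added as a block to that fit. Without the 4 ERF WT replicate 1 libraries, so with reference replicate 2 as the 1 reference library, 9 were called, with Ddit3 at -3.30, Nupr1 at -3.51, Atf3 at -2.14 and Asns at -1.81. With the effective length offset Asns (-0.98) was lost. Naive markers (7 of 7 present) summed to 634 to 673 CPM in the reference and to 1633 to 2327 CPM after deletion. The epiblast-like markers (4 of 4 present) went from 548 to 619 CPM down to 102 to 291 CPM and those of primitive endoderm from 48.1 to 88.3 CPM down to 7.55 to 10.98 CPM. Trophoblast markers summed to 18.6 to 22.3 CPM and to 25.5 to 31.0 CPM, feeder markers to 4.404 to 5.32 CPM and to 2.23 to 3.59 CPM, and the neural sums overlapped. The part of these markers in the result was not tested. In bulk RNA, fewer cells of a type and less RNA per cell cannot be told apart.

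**Figure D2:**
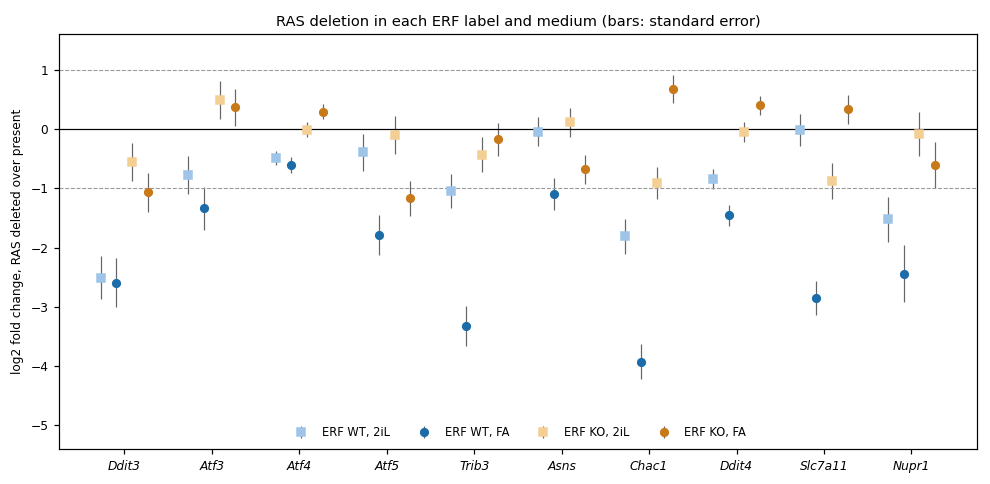
Log2 fold change of RAS-deleted over RAS-present libraries (y axis, points; bars are the standard error of the edgeR fit) for each gene (x axis) in 4 comparisons, with dashed lines at 2-fold. With ERF WT in FA (dark blue) all 10 points lie below 0, from -0.60 for Atf4 to -3.92 for Chac1, while in the libraries labelled ERF knockout (orange shades) they lie from -1.17 to 0.68 in FA and from -0.91 to 0.49 in 2iL.

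For libraries labelled ERF knockout, RAS deletion in 2iL gave 0 called genes of 10 by edgeR and 0 by DESeq2, where 0.0687% of all genes were called higher and 0.142% lower. Chac1 and Slc7a11 had an unadjusted p under 0.05, 2 of 10 genes. Ddit3 was 23.02, 26.9 and 24.5 CPM without OHT and 17.7, 16.3 and 16.7 CPM with it. These ranges were apart, yet the change of -0.55 (SE 0.33) did not pass (edgeR adjusted p = 0.471). Chac1 went from 17.3, 19.1 and 16.3 CPM to 10.9, 8.57 and 8.42 CPM, also apart, and its change of -0.91 (SE 0.27) did not pass either (edgeR adjusted p = 0.108). Trib3 (-0.43) was the third of 3 genes lower without overlap (11.7% of all genes), Atf3 (0.49) the 1 gene higher without overlap (12.9% of all genes), and 6 overlapped. Naive markers summed to 3021 to 3192 CPM without OHT and to 3350 to 3674 CPM with it, and their part was not tested.

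In FA with the ERF knockout label, Ddit3 and Atf5 fell after RAS deletion and no other member passed the call, 2 of 10 genes against 4.06% of all genes called lower. Ddit3 was 18.7, 18.8 and 20.6 CPM without OHT and 5.95, 7.67 and 14.3 CPM with it. The groups were apart, and the third RAS-deleted library lay nearest to the untreated ones. The change was -1.07 (SE 0.33, edgeR adjusted p = 0.0253). Atf5 was 71.0, 67.4 and 78.2 CPM without OHT and 22.3, 26.4 and 48.2 CPM with it, a change of -1.17 (SE 0.30, edgeR adjusted p = 0.00841). A fit on only the 6 libraries compared called 0 of the 10 genes, or Ddit3 and Atf5 again with the replicate block added, and leaving out single libraries gave 0 to 2 calls. The Ddit3 call was lost without 5 of those 6 libraries (-0.83 to -1.10), all but replicate 3 of the OHT libraries, and the Atf5 call without replicate 1 of the OHT libraries (-0.97). With the effective length offset Ddit3 (-0.90) was lost. Marker sums that were apart, without OHT first, were those of epiblast-like cells (343 to 401 and 462 to 487 CPM), primitive endoderm (51.3 to 62.0 and 10.94 to 20.02 CPM), neural cells (43.9 to 55.5 and 120 to 124 CPM), trophoblast (11.3 to 12.5 and 18.1 to 20.99 CPM) and feeders (4.18 to 4.97 and 6.05 to 7.43 CPM). Their part in the result was not tested.

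Chac1, Slc7a11 and Ddit4, which fell with ERF WT, had fold changes above 0 in that setting. Chac1 was 29.3, 22.1 and 23.8 CPM without OHT and 32.5, 38.4 and 49.2 CPM with it. The OHT libraries were all higher, and the change of 0.68 (SE 0.24, edgeR adjusted p = 0.0462) was under 2-fold. Ddit4 (0.40, adjusted p = 0.0690) and Atf4 (0.30, adjusted p = 0.0818) were higher without overlap but did not pass in edgeR. With Chac1 they made 3 of 10 genes higher without overlap (23.4% of all genes). Ddit3, Atf5 and Asns (-0.68, edgeR adjusted p = 0.0513) were the 3 lower without overlap (23.5% of all genes). Slc7a11 (0.34), Atf3 (0.37), Trib3 (-0.17) and Nupr1 (-0.60) overlapped between the groups. Library 3 of the RAS-deleted, ERF knockout-labelled group in FA was the highest of its group for 9 of the 10 genes, against 40.4% of all genes.

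The difference between the RAS effects with the 2 ERF labels was tested in FA as an interaction. It was called for 7 of the 10 genes, in the direction of a weaker fall or a rise with the ERF knockout label, against 6.29% of all genes in that direction. It was called under every setting run for Chac1 at 4.60 (SE 0.38, edgeR adjusted p = 9.85e-08), Slc7a11 at 3.19 (SE 0.38, edgeR adjusted p = 1.11e-06) and Trib3 at 3.15 (SE 0.43, edgeR adjusted p = 4.07e-05), as for Ddit4 at 1.85 (SE 0.24, edgeR adjusted p = 9.80e-06). With the effective length offset Slc7a11 differed by 2.02. By edgeR, Atf3 differed by 1.70 (adjusted p = 0.0114), Nupr1 by 1.84 (adjusted p = 0.0369) and Ddit3 by 1.52 (adjusted p = 0.0409). Atf4 passed the p alone (0.90, edgeR adjusted p = 0.000832). Atf5 (0.62, edgeR adjusted p = 0.339) and Asns (0.41, edgeR adjusted p = 0.449) did not pass.

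Of these 7, Chac1, Slc7a11, Trib3 and Ddit4 were also called without reference replicate 2, on only the groups compared and with the replicate block added to that fit, while Ddit3, Atf3 and Nupr1 were not in any of these 3. Without reference replicate 2, Trib3 differed by 2.34, Ddit3 by 0.36 (edgeR adjusted p = 0.559) and Nupr1 by 0.78 (edgeR adjusted p = 0.368). Without reference replicate 1, 9 of 10 genes were called. Without the 4 ERF WT replicate 1 libraries, again with 1 reference library, 9 were called, with Asns at 1.13. There Ddit3 differed by 2.22, Nupr1 by 2.90 and Atf3 by 2.49, and with the effective length offset Atf3 (1.30) was lost. The Ddit3 call was lost without any of 7 of the 11 libraries (0.36 to 1.59) and the Nupr1 call without any of 6 (0.78 to 1.79). These were replicate 3 of both RAS-deleted groups, reference replicate 2, replicates 1 and 3 of the ERF knockout-labelled libraries without OHT, for Ddit3 also replicate 2 of that group and replicate 1 of the RAS-deleted ERF WT group, and for Nupr1 replicate 2 of the latter. The same difference in 2iL was not tested because it contains the comparison that chose Ddit3.

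Between the ERF labels, in RAS-deleted libraries in FA, 8 of the 10 genes were called higher with the ERF knockout label, against 8.13% of all genes; Atf4 (0.41) and Asns (0.71) were under 2-fold. Chac1 was 4.21, 5.31 and 2.98 CPM with ERF WT and 32.5, 38.4 and 49.2 CPM with the knockout label. Trib3 was 6.62, 6.97 and 4.46 CPM against 26.7, 29.1 and 47.4 CPM. The groups were apart for 9 of 10 genes (26.4% of all genes tested), Asns being the one that overlapped. By edgeR, Chac1 differed by 3.27 (SE 0.28, adjusted p = 3.54e-08), Trib3 by 2.52 (SE 0.31, adjusted p = 5.73e-06), Slc7a11 by 2.04 (SE 0.27, adjusted p = 2.00e-06) and Ddit3 by 1.89 (SE 0.39, adjusted p = 0.000752). Nupr1 (1.83), Atf3 (1.53), Ddit4 (1.37) and Atf5 (1.24) made up the 8, of which Atf5 was lost without replicate 3 of the knockout-labelled group (0.84), and Atf3 (1.59) and Nupr1 (1.78) in the fit with the replicate block. With the effective length offset Slc7a11 differed by 1.40. This comparison shares its libraries with both RAS comparisons in FA.

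The epiblast-like markers summed to 102 to 291 CPM in the RAS-deleted ERF WT libraries and to 462 to 487 CPM in those labelled ERF knockout, where the naive markers stood at 628 to 657 CPM. The 4 neural markers summed to 44.8 to 67.8 CPM and to 120 to 124 CPM in the same 2 groups, trophoblast markers to 25.5 to 31.0 CPM and to 18.1 to 20.99 CPM, and those of primitive endoderm to 7.55 to 10.98 CPM and to 10.94 to 20.02 CPM, which overlap. Feeder markers were apart, at 2.23 to 3.59 CPM and at 6.05 to 7.43 CPM. The part of these markers in the gene values was not tested.

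In 2iL after RAS deletion, the ERF knockout label went with higher Chac1 and Nupr1. The ERF WT libraries here are among those the rule used. Both genes were called lower in them after RAS deletion, so their values and p-values here are a description. Of all genes, 5.83% were called higher there. Chac1 was 4.62, 4.31 and 2.90 CPM with ERF WT and 10.9, 8.57 and 8.42 CPM with the knockout label, a difference of 1.24 (SE 0.31, edgeR adjusted p = 0.00369). Nupr1 was 18.2, 11.8 and 12.3 CPM against 36.0, 44.0 and 42.7 CPM, a difference of 1.54 (SE 0.39, edgeR adjusted p = 0.00483). Ddit3, described without a test because the ERF WT libraries helped to choose it, was 4.41, 4.67 and 3.78 CPM against 17.7, 16.3 and 16.7 CPM, with a fitted difference of 1.98 (SE 0.37). In the other direction, Slc7a11 had a difference of -0.96 (edgeR adjusted p = 0.0162), under 2-fold. Trophoblast markers summed to 14.7 to 15.4 CPM with ERF WT and to 10.02 to 10.98 CPM with the knockout label. Those of primitive endoderm summed to 9.29 to 15.001 CPM and to 15.3 to 20.8 CPM, and epiblast-like markers to 51.24 to 63.66 CPM and to 43.06 to 51.15 CPM. The part of these markers was not tested.

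The ERF label was also compared with RAS present. In 2iL, 0 of 10 genes were called by edgeR and 0 by DESeq2, against 5.20% of all genes called higher and 4.52% lower. Ddit3 is counted in the 10 as a description only, since the 2iL reference libraries helped to choose it. Atf4 (-0.37, edgeR adjusted p = 0.0313) and Ddit4 (-0.46, edgeR adjusted p = 0.0443) passed the p and were under 2-fold, and no other member had an unadjusted p under 0.05. With Atf3 (-0.48) and Atf5 (-0.36) they were the 4 genes lower without overlap (20.8% of all genes). Marker sums that were apart here, reference first, were those of naive cells (3313 to 3793 and 3021 to 3192 CPM), trophoblast (14.5 to 15.4 and 9.37 to 10.96 CPM), primitive endoderm (11.3 to 19.5 and 19.99 to 46.1 CPM) and neural cells (16.4 to 18.97 and 20.04 to 23.5 CPM). Their part in the values was not tested. In FA, Chac1 and Slc7a11 were lower with the knockout label, where 0.780% of all genes were called lower. Chac1 was 45.2 and 80.9 CPM in the reference and 29.3, 22.1 and 23.8 CPM with the label, a difference of -1.33 (SE 0.26, edgeR adjusted p = 0.00472). Slc7a11 was 5.14 and 6.25 CPM against 2.57, 2.26 and 2.87 CPM, a difference of -1.15 (SE 0.26, edgeR adjusted p = 0.00795). Both calls were lost without reference replicate 2, when Chac1 differed by -0.84 (edgeR adjusted p = 0.0686) and Slc7a11 by -0.99 (edgeR adjusted p = 0.0481), both under 2-fold. Ddit3 (1.52) and Atf5 (1.61) then passed the call rule against that 1 reference library, replicate 1, with the spread taken from the other groups. Slc7a11 (-0.62) was also lost with the effective length offset, and Chac1 (-1.26) in the fit with the replicate block. Without reference replicate 1, Chac1 (-1.66), Slc7a11 (-1.25) and Trib3 (-1.11, against -0.63 with all libraries) were called lower. Epiblast-like markers summed to 548 to 619 CPM in the reference and to 343 to 401 CPM with the label. Trophoblast markers summed to 18.6 to 22.3 CPM and to 11.3 to 12.5 CPM, and neural markers to 58.0 to 60.9 CPM and to 43.9 to 55.5 CPM. The part of these markers in the result was not tested.

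The change of medium was compared in each line, and the members' counts in the reference lay near those of all genes. From 2iL to FA, Chac1 and Slc7a11 rose in the reference (13.2% of all genes were called higher) while Asns and Nupr1 fell (10.8% called lower). Chac1 went from 9.10, 15.2 and 17.4 CPM to 45.2 and 80.9 CPM, a change of 2.19 (SE 0.27), and Slc7a11 from 1.40, 1.61 and 1.86 CPM to 5.14 and 6.25 CPM, a change of 1.81 (SE 0.27). Asns went from 520, 561 and 565 CPM to 158 and 316 CPM (-1.21, SE 0.28, edgeR adjusted p = 0.00186), and Nupr1 changed by -1.26 (edgeR adjusted p = 0.0228). With Ddit4, 3 genes were higher without overlap (31.5% of all genes) and Asns and Nupr1 were the 2 lower (29.2%). The calls of Asns (-0.81) and Nupr1 (-0.66) were lost without reference replicate 1 in FA, and that of Nupr1 (-0.99) also without replicate 1 in 2iL. Without reference replicate 1 in FA, Atf5 (1.44), Ddit4 (1.18) and Trib3 (1.18) were called higher. Without reference replicate 2, Asns was -1.80 and Nupr1 -2.31, and Atf5, Ddit4 and Trib3 were not called. Chac1 was 2.54 and 1.70 without replicate 1 and 2, and Slc7a11 1.93 and 1.66, or 1.16 with the effective length offset. Asns (-0.85) and Nupr1 (-0.37) were lost without the 4 ERF WT replicate 1 libraries, and Nupr1 (-1.26) on only the groups compared. The sums of naive, epiblast-like, neural and trophoblast markers were apart between the media in each line. From 2iL to FA in the reference, neural sums went from 16.4 to 18.97 CPM up to 58.0 to 60.9 CPM. Trophoblast sums there went from 14.5 to 15.4 CPM up to 18.6 to 22.3 CPM, and those of primitive endoderm from 11.3 to 19.5 CPM up to 48.1 to 88.3 CPM. Primitive endoderm sums were also apart with the ERF knockout label without OHT, and feeder sums with RAS deleted and ERF WT. The part of these markers was not tested. Ddit3, not tested here, had a fitted change of -0.70 and overlapping ranges, and of -1.85 without reference replicate 2.

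After RAS deletion with ERF WT, no member rose in FA and Trib3 (-1.60), Asns (-2.26), Slc7a11 (-1.02) and Nupr1 (-2.18) fell, where 6.59% of all genes were called lower and 9.96% higher. Asns went from 576, 496 and 529 CPM to 157, 106 and 71.9 CPM, without overlap (edgeR adjusted p = 2.12e-06). The Slc7a11 call was lost without replicate 1 of either medium or replicate 3 in FA (-0.88 to -0.92), without the ERF WT replicate 1 libraries together (-0.79) and with the effective length offset (-0.91). Atf3 (-0.87, edgeR adjusted p = 0.0494) passed the p alone with overlapping ranges, and passed the call rule in 6 of 14 other settings, at most at -1.40 without replicate 1 in FA. Chac1, which rose with the medium in the reference, was 4.62, 4.31 and 2.90 CPM in 2iL and 4.21, 5.31 and 2.98 CPM in FA here, overlapping, with a change of 0.08 (SE 0.32, edgeR adjusted p = 0.874). Ddit3, again with no test, had a fitted change of -0.78 and ranges that were apart.

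In libraries labelled ERF knockout without OHT, Atf5 rose in FA from 16.7, 23.4 and 19.8 CPM to 71.0, 67.4 and 78.2 CPM (1.85, SE 0.31, edgeR adjusted p = 0.000101; 12.3% of all genes were called higher). Nupr1 fell (-1.38, edgeR adjusted p = 0.00666; 7.46% called lower). In those given OHT, Chac1 (2.10), Slc7a11 (1.98) and Ddit4 (1.30) rose, where 14.5% of all genes were called higher (Slc7a11 1.26 with the effective length offset), and Asns (-1.56) and Nupr1 (-1.89) fell, where 10.4% were called lower. With all libraries Nupr1 was called lower in FA in each of the 4 lines, though in the reference the call was lost in 5 of 13 settings, down to -0.37. The medium effect with the knockout label differed between RAS deleted and RAS present for Chac1 (1.59, SE 0.36, edgeR adjusted p = 0.00819) and Slc7a11 (1.21, SE 0.39, edgeR adjusted p = 0.0444), 2 of 10 genes against 2.29% of all genes called in this direction. The Slc7a11 call was lost without any of 8 of the 12 libraries (0.92 to 1.29) and with the effective length offset (0.88).

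Ordered by mean CPM, Ddit3 was highest in 2iL in the ERF knockout-labelled libraries without OHT (24.8 ± 1.96 CPM; SD, n = 3) and in the 2iL reference (24.3 ± 2.95 CPM; SD, n = 3), whose ranges overlapped. Next came the ERF knockout label in FA without OHT (19.3 ± 1.06 CPM; SD, n = 3), apart from both neighbours in the order. The ERF knockout label with RAS deleted in 2iL (16.9 ± 0.720 CPM; SD, n = 3), the FA reference (15.2 ± 11.8 CPM; SD, n = 2) and the ERF knockout label with RAS deleted in FA (9.31 ± 4.41 CPM; SD, n = 3) followed, each overlapping the next. The lowest were RAS deleted with ERF WT in 2iL (4.28 ± 0.459 CPM; SD, n = 3) and in FA (2.51 ± 0.621 CPM; SD, n = 3), which overlapped neither each other nor any other group. Since Ddit3 was chosen for part of this pattern, the order is a description.

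The profile of Ddit3 over the 23 libraries was compared with those of 10268 genes by the root mean square difference of centred log2(CPM + 1) values. The nearest were Ubap1l (0.43), Kif21b, a kinesin motor (0.51), Txnip, the thioredoxin-interacting protein (0.54), Cryzl1 (0.57) and AI481877 (0.58), with the median gene at 1.10. Txnip was 319 CPM in the 2iL reference (SD 90.1, n = 3) and 160 CPM after RAS deletion (SD 18.7, n = 3). Of the members Nupr1 was nearest (0.59), then Trib3 (0.68), and Chac1 and Slc7a11 were farthest (1.09 each). Within the 10 genes the closest pair was Ddit4 and Slc7a11 (0.37), followed by Atf3 and Atf4 (0.42), and the farthest was Asns and Chac1 (1.56). The points share their libraries, so this likeness is a description.

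The rest of the pathway was read from 8 lists of 90 genes, all of them tested. After RAS deletion in FA with ERF WT, 9 of 12 amino acid synthesis genes were called lower and 0 higher, where 8.33% of all genes were called lower, with a median of -1.33 against 0.00 over all genes tested. Mthfd2, a mitochondrial folate enzyme, was 142 CPM in the reference (SD 35.7, n = 2) and 46.8 CPM after deletion (SD 4.14, n = 3), a change of -1.60 (edgeR adjusted p = 1.25e-10). Psph, the last step of serine synthesis, changed by -1.55. Of 8 amino acid transporters 4 were called lower, led by Slc7a5 (-1.89), the large neutral amino acid carrier, and Slc6a9 (-1.86), a glycine carrier. The transporter median was -1.03. Without reference replicate 2, 5 synthesis genes and 3 transporters were called, with Mthfd2 at -1.31, Psph at -1.08, Slc7a5 at -1.71 and Slc6a9 at -1.53. Without replicate 1 there were 9 and 5.

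Of 13 tRNA synthetase genes, the enzymes that charge tRNAs and the exporter Xpot, 13 lay below 0, as did 10145 of all 20372 genes, and 2 were called lower, Sars (-1.26) and Nars (-1.13), against the same 8.33% of all genes. Of 15 other ATF4 and CHOP targets 4 were called lower, among them Vldlr, a lipoprotein receptor (-1.78), and Fgf21, a stress hormone at or near 0 counts after deletion, for which no fold is given. Of 16 ER chaperone and unfolded protein response genes 2 were called, against 17.3% of all genes in either direction: Sdf2l1, an ER chaperone cofactor, higher (1.08), and Herpud1, an ER degradation factor, lower (-1.46). The fitted values of 15 of the 16 lay above 0, as did those of 10215 of the 20372 genes tested, and their median was 0.66. The sensors and switches of eIF2 (median -0.11), mitochondrial stress genes (-0.29) and NRF2 targets (-0.17) had 0 calls by edgeR and by DESeq2, with 7, 4 and 3 genes at an unadjusted p under 0.05. Without reference replicate 2, 0 synthetases (Sars -0.72, Nars -0.69), 2 other targets and 1 ER gene were called, with Vldlr at -1.27, Herpud1 at -1.42 and Sdf2l1 (0.85) lost. Without replicate 1 there were 5, 6 and 4, and 1 of the sensors and switches.

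With the ERF knockout label, RAS deletion gave 0 calls among the 90 list genes in both media by edgeR and by DESeq2. An unadjusted p under 0.05 was found for 9 of them in 2iL and 40 in FA. The share of all genes at that unadjusted p is not given here, so nothing is read from these counts. Of all genes 0.211% were called in either direction in 2iL and 6.88% in FA. In FA the medians were -0.15 for amino acid synthesis and 0.27 for transport. The interaction in FA was called higher for 5 of 12 synthesis genes (Gpt2, a transaminase, 1.95; Mthfd2 1.59), 4 of 8 transporters (Slc6a9 2.29; Slc7a5 2.15), 4 of 15 other targets (with Cdkn1a, a cell cycle inhibitor, lower at -1.02) and 1 of 13 synthetases (Nars 1.01), where 6.29% of all genes were called higher and 7.42% lower. Among the 16 ER genes, 4 were called lower, led by Hspa5, the main ER chaperone (-1.72), and Creld2 (-1.25), and Herpud1 was called higher (1.71). Without reference replicate 2 the calls in either direction were 2 synthesis genes, 4 transporters, 2 other targets, 0 synthetases (Nars 0.56) and 4 ER genes, with Mthfd2 at 1.28, Slc6a9 at 1.94, Slc7a5 at 1.96 and Hspa5 at -1.60. Without replicate 1 they were 8, 6, 5, 4 and 8, and Cdkn1a (-0.83) was lost.

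Between the ERF labels after RAS deletion in FA, 6 of 12 synthesis genes (Gpt2 1.70; Aldh1l2, a mitochondrial folate enzyme, 1.34), 3 of 8 transporters (Slc6a9 1.78; Slc7a5 1.495) and 3 of 15 other targets (Vldlr 1.93) were called higher, where 8.13% of all genes were. The ER list had 14 of 16 below 0 (9973 of the 20372 genes tested) with a median of -0.53, and 0 calls by edgeR and by DESeq2 with 15 at an unadjusted p under 0.05. None of 13 synthetases was called, a count of 0 by edgeR and by DESeq2 with 10 at an unadjusted p under 0.05, and 13 of 13 lay above 0 (10389 of all genes). In 2iL, RAS deletion with ERF WT gave 1 call among these 90 genes, Gdf15, a stress-induced cytokine (-1.05), and 13 of 13 synthetases and 12 of 12 synthesis genes lay below 0 (10122 of all genes), with medians of -0.41 and -0.56. Of all genes 1.2% were called in that comparison, which is the one the rule used, so this is a description.

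**Figure D3:**
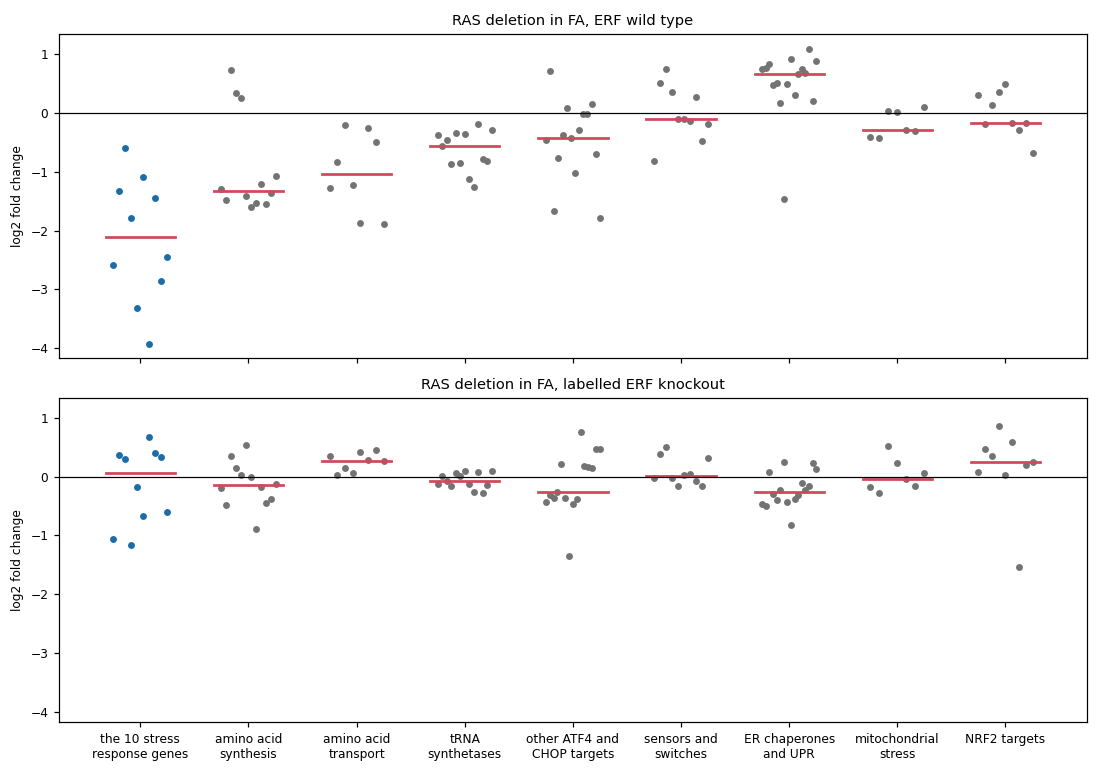
Log2 fold change of RAS-deleted over RAS-present libraries in FA (y axis), 1 point per gene and a red line at the list median, for the 10 genes (blue) and 8 lists (grey), with ERF WT above and the ERF knockout label below; 1 gene with a larger fall (Fgf21) is not drawn. With ERF WT the medians are -2.11 for the 10 genes, -1.33 for amino acid synthesis and -1.03 for transport, and 0.06, -0.15 and 0.27 with the label.

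Ddit3 overlaps exons of Mars, a tRNA synthetase gene, on the opposite strand (chr10:127290774-127296288, plus strand, GRCm38), and Atf5 overlaps exons of Nup62 and Il4i1 (chr7:44812256-44816658, minus strand). The library kit keeps strand, but whether the counting used it is not given in the sources used here, so reads of these partners may be shared. After RAS deletion in FA with ERF WT, Mars changed by -0.36 and Nup62 by -0.42, beside Ddit3 at -2.59 and Atf5 at -1.78. After RAS deletion in 2iL with ERF WT, Il4i1 changed by -0.95 (edgeR adjusted p = 0.0172) where Atf5 changed by -0.39. With the ERF knockout label in FA, Nup62 changed by 0.15 and Il4i1 by -0.28 where Atf5 changed by -1.17.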

How the data were processed

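RNA of 23 libraries in 8 groups was analysed. Per the labels' protocols, ribosomal RNA was removed before directional libraries were prepared from total RNA. Per the submitters' processing notes, bcl2fastq 2.20.0, fastp 0.20.0, Salmon and build mm10 were used; the Salmon version, index and strand setting are not given in the sources used here. Per the file headers, the authors deposited estimated counts, TPM and effective lengths per gene symbol for each library. They also deposited a count matrix, whose cells equal the rounded estimated counts (0 differ). The authors' normalization of the counts is none.

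Libraries were grouped by the labels. Genes were tested on rounded estimated counts with edgeR 4.0.16 in R 4.3.3 (filterByExpr, TMM, robust quasi-likelihood, 1 model of 23 libraries, a coefficient per group). Of 53607 rows, 20372 were tested, with Benjamini-Hochberg adjustment over all of them. A call needs an adjusted p under 0.05 and a 2-fold change. Counts of genes at an unadjusted p under 0.05 are given with no share over all genes, and nothing is read from them. Each standard error was derived from the fold change and the F statistic, as |log2 fold change| over root F. CPM uses TMM-scaled library sizes. The script was tested on simulated data.

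The 10 genes, the lists and the tests were chosen with earlier results of these data known. Named genes are the 10 members, Erf, Hras and Nras, the called list genes with the largest change in a comparison, and the 5 genes nearest to Ddit3 among those with a mean of at least 5 CPM, predicted genes excepted. A further RAS gene is not reported here, so its deletion was not checked. Genes that overlap Ddit3 and Atf5, and those near Ddit3 in the ranking, were named after their values were seen.

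Counts of 16221640 to 29874207 per library leave the spread between libraries, not counting error, as the main limit except for low genes. Slc7a11 had 12 to 15 counts per library with RAS deleted and the ERF knockout label in 2iL. It had 14 to 26 with RAS deleted and ERF WT in FA, and counting error is a limit there too. The predicted gene Gm26917 took 17.6 to 27.9% of counts. Replicate pairs differed by chi-square per degree of freedom of 3.04 to 44.9 over 22 pairs, so each library counted as 1 replicate. Alternatives were DESeq2 1.42.0, no filter, only the groups compared, a replicate block in that fit, no fold minimum, Gm26917 taken out, an effective length offset and leaving out each library; leaving out the 4 libraries with raised chromosome 8 expression was added after the data were seen. Replicate numbers paired the libraries (every pair's correlation of deviations over 0.1) in 5 of 12 comparisons: RAS deletion in 2iL with either ERF label, and FA against 2iL in every line but the reference. The labels name no sequencing batch.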

Additional observations from a re-analysis of the deposited data

Results flagged for a closer look

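Effects that differed between groups under the same contrast, by the interaction test of edgeR, are listed here with their log2 difference. In FA, the effect of RAS deletion differed between the ERF knockout label and ERF WT by 4.60 for Chac1, 3.19 for Slc7a11, 3.15 for Trib3, 1.85 for Ddit4, 1.84 for Nupr1, 1.70 for Atf3, 1.52 for Ddit3 and 0.90 for Atf4, the last under 2-fold. Of these, Ddit3 and Nupr1 had an adjusted p of 0.0409 and 0.0369, and without reference replicate 2 in FA, so against 1 reference library, the differences were 0.36 and 0.78. Of 19 other settings, the call was lost in 9 for Ddit3, in 8 for Nupr1 and in 4 for Atf3 (down to 1.30). With the ERF knockout label, the effect of medium differed between RAS deleted and RAS present by 1.59 for Chac1 and 1.21 for Slc7a11, whose call was lost in 9 of 19 other settings (down to 0.88).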

How the results depend on the processing

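Counts of called members were within 1.5 times of their value under DESeq2, no filter, Gm26917 taken out and, added after the data were seen, without the 4 libraries with raised chromosome 8 expression. In that last setting, however, the calls of Asns and Nupr1 for FA against 2iL in the reference and of Slc7a11 for the same change in the RAS-deleted ERF WT line were lost. The replicate block was fitted on only the groups compared. It gave 5 calls for RAS deletion in FA with ERF WT (9 with all groups, 7 on only the groups compared), 1 for the ERF label in FA with RAS present (2 and 2) and 4 for the interaction in FA (7 and 4). The first 2 of these did not meet the correlation rule for pairing by replicate number, and the rule was not applied to the interaction. Replicate 1 of both ERF WT groups in FA did share raised chromosome 8 expression (0.27 and 0.33 on the log2 scale). That is some evidence of pairing by number with ERF WT. Where the numbers paired the libraries by the correlation rule, the fit with the block changed no count by over 1.5 times. Only the groups compared gave 0 in place of 2 for RAS deletion in FA with the ERF knockout label (2 again with the replicate block) and 4 in place of 7 for the interaction. The effective length offset gave 1 in place of 2 for RAS deletion in FA and for the medium by RAS interaction with the knockout label, and 1 in place of 2 for the ERF label in FA with RAS present. With no fold minimum, the counts were 2 in place of 0 for the ERF label in 2iL with RAS present and 5 in place of 2 for the medium with the knockout label and RAS present. The cause was not tested.

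Leaving out each library gave 2 to 3 calls for RAS deletion in 2iL with ERF WT (4 with all libraries, a description since this comparison chose Ddit3), 6 to 9 in FA with ERF WT, 0 to 2 in FA with the knockout label, 2 to 3 for the ERF label in FA with RAS present, 3 to 4 in 2iL with RAS deleted (Ddit3, which is only described there, is 1 of them), 7 to 9 in FA with RAS deleted, 3 to 5 for the medium in either ERF WT line (Ddit3, not tested there, is counted without reference replicate 2), 5 to 6 with the knockout label and RAS deleted, 4 to 9 for the interaction in FA and 1 to 2 for the medium by RAS interaction. Directions that turned rest mostly on the 2 reference libraries in FA; without either, or without the chromosome 8 libraries, 1 reference library is left there and is assumed to vary like the other groups. For the ERF label in FA with RAS present, leaving out single libraries gave -0.25 to 1.52 for Ddit3 (0.37 with all), -0.088 to 0.90 for Asns (0.30 with all) and -1.11 to 0.17 for Trib3 (-0.63 with all). Without the 4 chromosome 8 libraries, Ddit3 was -0.25 and Asns -0.088. For FA against 2iL in the reference, the ranges were -0.11 to 1.44 for Atf5 and -0.11 to 1.18 for Trib3, and Atf3 was 0.029 without the chromosome 8 libraries (-0.31 with all). For the interaction in FA they were -0.38 to 1.18 for Atf5 and -0.20 to 0.80 for Asns. Of 140 member differences, 29 were under 0.3 on the log2 scale, of which 20 changed sign in some setting and 0 were called in any. Counts of called list genes moved by over 1.5 times in 113 recomputations and stayed within it in 1367.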
